A study of Mus musculus with 4 samples.

Results

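The unfolded protein response and the chaperones of the endoplasmic reticulum (ER) were followed in the chondrogenic mouse line ATDC5 after transfection with a duplex RNA against Chadl. The group holds 35 named genes, and its members were all probe sets whose only gene symbol in the platform annotation was one of those names, 69 of the 45037 probe sets tested. Each gene was read by its probe set of highest mean signal, so the 35 genes stand among 17097 genes read in the same way. They were grouped into 6 stress sensors and transcription factors, 14 chaperones and folding enzymes, 7 genes of ER-associated degradation, and 8 genes of the arm that runs through the transcription factor ATF4.

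The series holds 4 arrays of one ATDC5 line, 2 from cells given a universal scrambled duplex (control 1 and 2) and 2 from cells given a Chadl-specific duplex (knockdown 1 and 2). All 4 samples received 30 nM of a 27-mer duplex with a lipid reagent, were moved to differentiation medium after 16 h, and were harvested after 5 days of differentiation. The knockdown rests on 1 duplex, no untransfected cells were analysed here, and transfection was common to both groups. The titles call the arrays biological replicates but do not state that they came from separate cultures. The p-values therefore rest on the spread within each pair, and that spread may be technical.

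The unfolded protein response is the program by which a cell matches the folding capacity of its ER to the proteins it is making. The sensors IRE1 (Ern1), PERK (Eif2ak3) and ATF6 respond to unfolded protein in the ER: IRE1 splices the Xbp1 transcript, PERK phosphorylates eIF2alpha and so favours translation of ATF4, and ATF6 is cut in the Golgi to release a transcription factor. XBP1 and ATF6 raise chaperone and degradation genes, and ATF4 raises genes of amino acid supply and of stress exit. Chondrocytes secrete large amounts of collagen and proteoglycan, and this program is known for its part in their differentiation.

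Signals are log2 values after RMA, a normalization that subtracts background and makes the arrays' probe distributions alike, so that a difference of 1 is a 2-fold change. The targeted gene Chadl, which encodes chondroadherin-like, read 4.91 and 4.84 on the control arrays, 4.29 on knockdown 1 and 4.64 on knockdown 2. Both knockdown arrays lay below both controls, with a difference of -0.41 (SE 0.12) that did not pass over all probe sets (adjusted p = 0.608, limma). Its mean signal of 4.67 lay under that of the brightest nonspecific background probe set, 5.96. The arrays were alike in median signal (4.24 to 4.25) and in the 3'-to-5' gap of the beta-actin control probe sets (0.80 to 0.83), while that of Gapdh was 0.07 on both controls, 0.09 on knockdown 1 and 0.15 on knockdown 2. For the transferrin receptor that gap was 0.95 and 0.97 on the controls, 0.97 on knockdown 1 and 1.09 on knockdown 2. The knockdown pair differed more than the control pair, with SDs over all genes of 0.20 and 0.10. Of 12 chondrocyte markers 10 had a difference below 0 and 2 were lower and 1 higher at an unadjusted p in limma, with a median of -0.08 and a mean signal of 5.63 on both controls, 5.34 on knockdown 1 and 5.63 on knockdown 2. Among them the collagen gene Col2a1 read 9.01 and 9.08 against 8.23 and 9.17, the factor gene Sox9 differed by -0.0026, and the aggrecan gene Acan was dim (5.08 to 5.12). Markers of adipocytes, leukocytes, endothelium, muscle and epithelium had list means of 3.25 to 4.11, below the array medians. Markers of osteoblasts parted the knockdown arrays, with a mean signal over 5 markers of 6.92 and 6.88 in the controls, 5.83 in knockdown 1 and 6.55 in knockdown 2.

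The response as a whole lay close to the control level, and the differences seen were small. No member passed over all probe sets at an adjusted p of 0.05 in limma, where 1 probe set of 45037 did (0.00222%) and 0% of genes read by their brightest probe set did. At an unadjusted p of 0.05 in limma, 2 of 35 members were lower (Asns and Trib3, 5.71%, against 2.56% of all genes) and 0 were higher (against 4.4%). The largest difference of any member was 1.21-fold, that of Trib3. The unadjusted intervals of the other 33 members all held 0. Over the 35 genes the median difference was -0.02, beside 0.0067 over all genes, and it was -0.04 in each knockdown array taken against the control mean. Differences were below 0 for 22 of the 35 (62.9%, against 47.3% of all genes). The members were brighter than genes at large, with a median signal percentile of 84.0 among all genes. The shares of all genes given here and below were not matched for signal.

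Ranges of the arrays were compared without a model as well. Both knockdown arrays lay below both controls for 11 members (31.4%), where 17.1% of all genes did the same, and above both controls for 4 (11.4%), where 21.2% did. At an unadjusted p of 0.05 in limma 5 of the 69 probe sets were lower (7.25%, against 3.83% of all probe sets) and 0 higher (against 3.42%). Over the 69 probe sets 21 lay below (30.4%, against 19.9% of all probe sets) and 7 above (10.1%, against 18.6%). For 10 members the knockdown arrays lay on opposite sides of the control pair, and the share of all genes that did so was not computed. The difference was larger than the gap between the controls for 23 of 35 members (65.7%), as it was for 52.5% of all genes. These shares describe genes read on the same 4 arrays and are not a test.

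**Figure D1:**
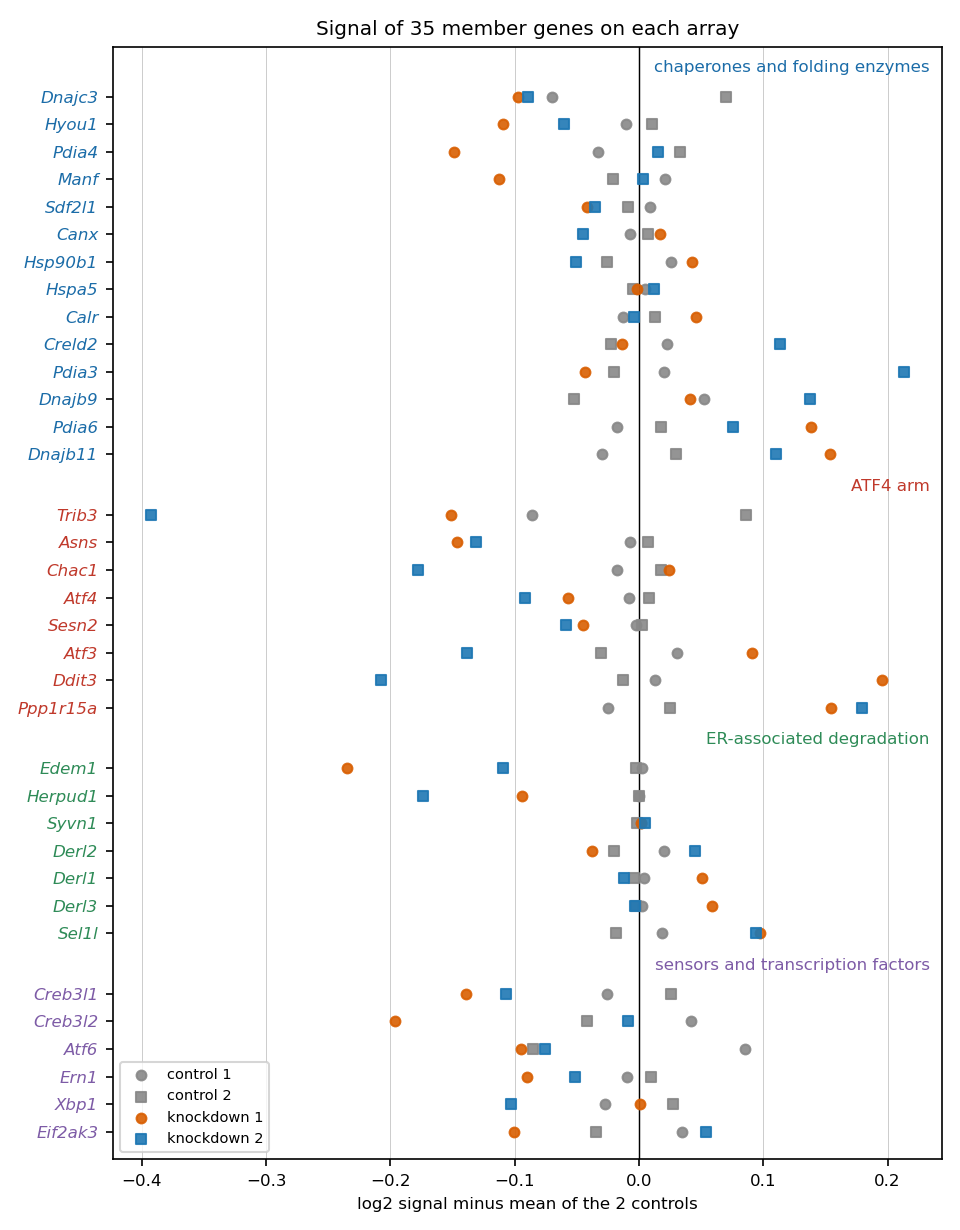
Log2 signal of each of the 35 genes on the 4 arrays, as the distance from the mean of the 2 controls (horizontal axis), with genes in rows by role; circles are replicate 1 and squares replicate 2, in grey for controls, orange for knockdown 1 and blue for knockdown 2. Trib3 in knockdown 2 (-0.39) lies farthest from the controls, and Ddit3 lies to the right in knockdown 1 (0.20) and to the left in knockdown 2 (-0.21).

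The sensors and their transcription factors all had differences below 0, each with a 95% confidence interval that held 0. Ern1, the kinase and nuclease IRE1, read 7.65 and 7.67 on the control arrays against 7.57 and 7.61 on the knockdown arrays, with a difference of -0.07 (SE 0.07). Both knockdown arrays lay below both controls, and of the other 4 Ern1 probe sets, all dimmer, 1 had the opposite sign. Eif2ak3, the kinase PERK, read 7.50 and 7.43 against 7.36 and 7.52, and Atf6 read 6.61 and 6.44 against 6.43 and 6.45. For Atf6 the gap between the controls was larger than the difference (-0.09), and knockdown 2 lay inside it, and a dimmer probe set differed by 0.06 the other way. For Eif2ak3 the knockdown arrays stood on opposite sides of the controls.

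Xbp1, whose product drives chaperone and degradation genes once its transcript has been spliced, read 9.87 and 9.92 against 9.90 and 9.79. Its 4 probe sets differed by -0.08 to -0.04, all with the same sign, and none separates spliced from unspliced transcript as analysed here. Creb3l1 and Creb3l2 encode the membrane-bound factors OASIS and BBF2H7, which are known to act on bone and cartilage secretion. Creb3l1 read 6.43 and 6.48 against 6.31 and 6.35, below both controls in both arrays (difference -0.12, SE 0.08). Creb3l2 read 7.98 and 7.90 against 7.74 and 7.93, so that its difference of -0.10 lay in knockdown 1, and its dimmer probe set differed by 0.19 the other way. The median of the 6 genes was -0.08, with -0.10 in knockdown 1 and -0.06 in knockdown 2, beside medians of -0.0031 and 0.01 over all genes, and 0 of 6 were past an unadjusted p of 0.05 in limma.

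Chaperones and folding enzymes, the main output of XBP1 and ATF6, were level. Hspa5, which encodes the Hsp70 chaperone BiP and is the most used readout of ER stress, read 10.61 and 10.60 against 10.60 and 10.62, a difference of 0.0052 with a 95% confidence interval of -0.07 to 0.08. The groups overlapped, and its dimmer probe set differed by -0.04, also with overlap. Hsp90b1, the Hsp90 of the ER (GRP94), read 10.85 and 10.80 against 10.87 and 10.78, and its second probe set read lower by 0.25 (SE 0.08, unadjusted p = 0.014 and adjusted p = 0.611 in limma). The lectin chaperones Calr and Canx read 10.73 and 10.75 against 10.79 and 10.73, and 10.89 and 10.90 against 10.91 and 10.85. None of these 4 had knockdown arrays on 1 side of both controls by its brightest probe set.

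The co-chaperones and disulfide isomerases parted a little more. Dnajb11, an ER partner of BiP, read 8.53 and 8.59 against 8.72 and 8.67, and Pdia6, a protein disulfide isomerase, read 8.54 and 8.57 against 8.69 and 8.63. These were the 2 of 14 chaperone genes with both knockdown arrays above both controls (14.3%, beside 21.2% of all genes). Their differences were 0.13 (SE 0.06) and 0.11 (SE 0.06). Hyou1, a large Hsp70 that exchanges the nucleotide of BiP, read 7.74 and 7.76 against 7.64 and 7.69. Its 3 probe sets were all lower, by 0.08 to 0.17, and the dimmest, near background, had the smallest p of the 3 (unadjusted p = 0.0347, adjusted p = 0.666, limma). Dnajc3, the inhibitor of PERK known as p58IPK, read 7.39 and 7.54 against 7.37 and 7.38, with all 5 probe sets lower. Sdf2l1, an ER protein that works with BiP, read 8.13 and 8.12 against 8.08 and 8.09. With Hyou1 and Dnajc3 it made 3 genes of the group below both controls (21.4%, beside 17.1% of all genes).

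Of the remaining folding genes, Dnajb9, another BiP partner and an XBP1 target, read 7.52 and 7.41 against 7.50 and 7.60. Pdia4 read 7.91 and 7.97 against 7.79 and 7.95, and Manf, a secreted stress-induced factor, 9.89 and 9.85 against 9.75 and 9.87. Both were lower in knockdown 1 only. Creld2, which is secreted on ER stress, read 8.23 and 8.19 against 8.19 and 8.32, higher in knockdown 2 only. Pdia3 was read by 1 dim probe set at 4.53 and 4.49 against 4.47 and 4.73, and its groups overlapped. Over the 14 genes 7 differences were below 0 and 7 above, from -0.09 to 0.13, with a median of 0.00048, and 0 genes were past an unadjusted p of 0.05 in limma. The 95% confidence intervals of the 13 genes other than Pdia3 reached at most a 1.21-fold change in either direction.

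**Figure D2:**
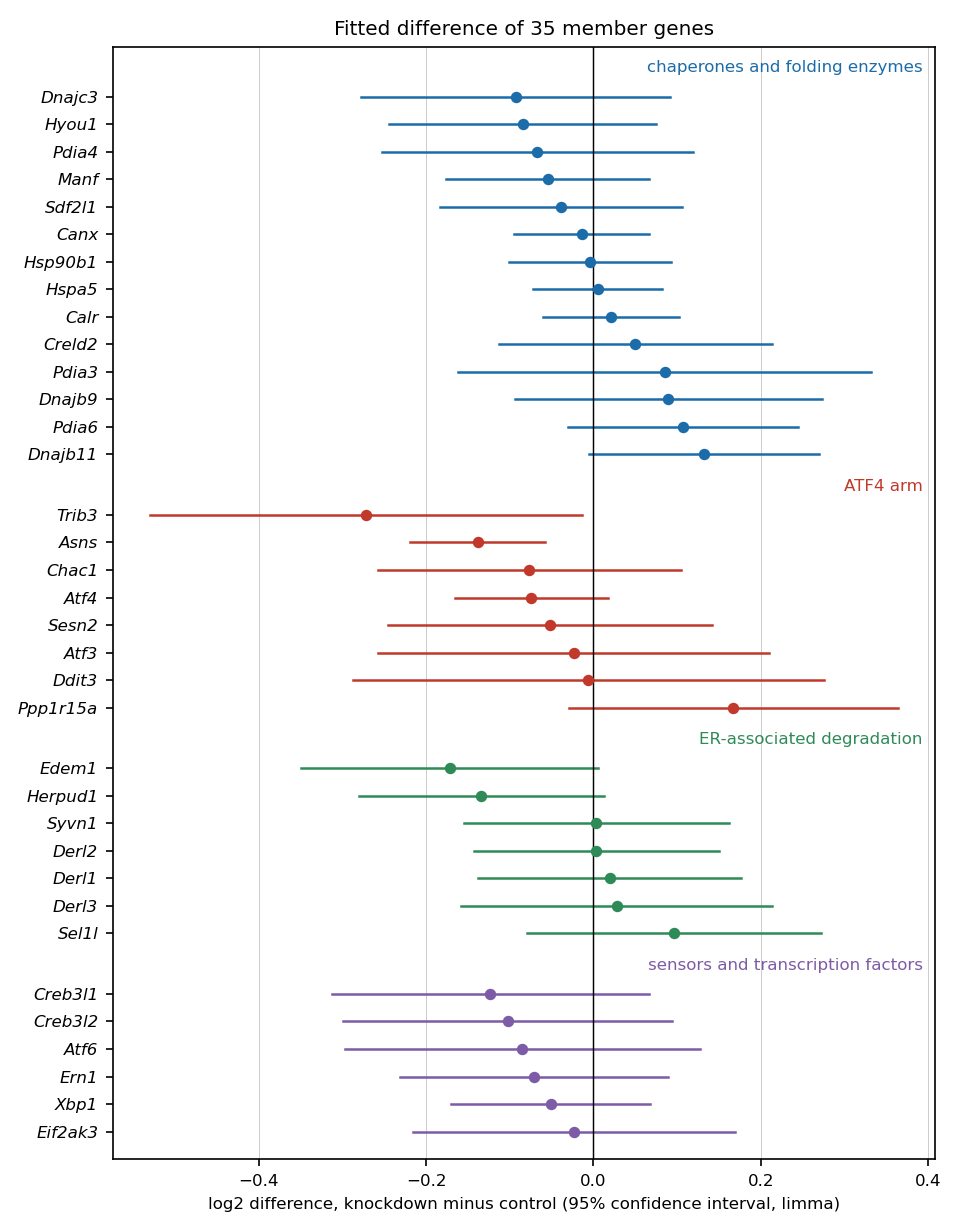
Fitted log2 difference, knockdown minus control (horizontal axis), of the 35 genes, with points for the estimate and bars for limma's 95% confidence interval from 2 arrays per group; genes are in rows by role. The interval of 33 genes holds 0, and those of Trib3 and Asns lie below it before any adjustment.

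ER-associated degradation pulls misfolded proteins back to the cytosol for the proteasome. Of its 7 genes 2 had both knockdown arrays below both controls (28.6%, beside 17.1% of all genes). Another 1 had both above (14.3%, beside 21.2%), while 5 of the 7 differences were above 0. Herpud1, a membrane scaffold of the degradation complex, read 8.39 and 8.39 against 8.30 and 8.22 (difference -0.13, SE 0.06, unadjusted p = 0.0682, adjusted p = 0.702, limma). Its other probe set also lay below both controls (difference -0.16, SE 0.06, unadjusted p = 0.0366, adjusted p = 0.666, limma). Edem1, a lectin that hands mannose-trimmed proteins to degradation, read 7.66 and 7.65 against 7.42 and 7.55 (difference -0.17, SE 0.08). Its dimmer probe set differed by 0.04 the other way.

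Probe sets of the ligase and its partners differed among themselves. Syvn1, the ubiquitin ligase HRD1, read 7.62 on each of the 4 arrays by its brightest probe set, and its dimmer one lay below both controls (-0.07). Sel1l, its partner, read 6.95 and 6.91 against 7.03 and 7.02, the only gene of the 7 with both knockdown arrays above both controls, and 2 of its 5 probe sets had the opposite sign. The derlins, multi-pass proteins of the same complex, differed by 0.02 (Derl1), 0.0035 (Derl2) and 0.03 (Derl3). The other 2 Derl1 probe sets had the opposite sign (-0.12, below both controls, and -0.02). Derl3 read 4.17 and 4.17 against 4.23 and 4.16, a dim signal. The median of the 7 genes was 0.0035, and 0 were past an unadjusted p of 0.05 in limma.

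The ATF4 arm lay lowest among the roles in knockdown 2 and parted between the knockdown arrays. The median was -0.06 over both arrays, -0.01 for knockdown 1 alone and -0.13 for knockdown 2 alone, and 7 of its 8 genes had a difference below 0. Asns, the enzyme that makes asparagine and a classical ATF4 target, read 10.52 and 10.53 against 10.38 and 10.40. The knockdown arrays differed by about as little as the controls did, and the gap between the groups was -0.14 (SE 0.03, 1.1-fold lower, unadjusted p = 0.00468, adjusted p = 0.52, limma). Trib3, a pseudokinase that feeds back on ATF4 and CHOP, read 6.62 and 6.79 against 6.55 and 6.31 (difference -0.27, SE 0.11, unadjusted p = 0.0412, adjusted p = 0.678, limma). Most of that difference lay in knockdown 2 (-0.39, beside -0.15 in knockdown 1), the array with the largest 3'-to-5' gaps of Gapdh and the transferrin receptor; the part of RNA quality was not tested.

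Atf4 itself read 10.14 and 10.16 against 10.09 and 10.06, below both controls with a difference of -0.07 (SE 0.04), and its dim second probe set differed by -0.11. Sesn2, a stress-induced inhibitor of mTORC1, read 5.73 and 5.73 against 5.68 and 5.67. Ppp1r15a, which encodes GADD34, the phosphatase subunit that ends eIF2alpha phosphorylation, was the exception of the arm at 5.57 and 5.62 against 5.75 and 5.78, above both controls (difference 0.17, SE 0.08, unadjusted p = 0.0846, adjusted p = 0.71, limma). Sesn2, Ppp1r15a, Pdia3 and Derl3 were the 4 members whose signal lay under that of the brightest of 23 nonspecific background probe sets. Those background probe sets had mean signals from 2.19 to 5.96.

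For 3 further genes of the arm the knockdown arrays stood on opposite sides of both controls. So they did for 3 of 14 chaperone genes and 3 of 7 degradation genes, and the share of all genes was not computed. Ddit3, the factor CHOP, read 8.44 and 8.42 in the controls, 8.63 in knockdown 1 and 8.22 in knockdown 2. Its mean difference was therefore -0.0061 (SE 0.12), although knockdown 1 stood 0.20 above the control mean and knockdown 2 at -0.21 from it. Chac1, an enzyme that degrades glutathione, read 8.62 and 8.65 against 8.66 and 8.46, and Atf3, a stress-induced repressor, 6.55 and 6.49 against 6.61 and 6.38. Both were lowest in knockdown 2. With knockdown 2 alone set against the controls Ddit3 differed by -0.21 (adjusted p = 0.00864, limma), and with knockdown 1 alone by 0.20 (adjusted p = 0.00355, limma). Asns was lower in both such fits (-0.13 and -0.15, adjusted p = 0.000771 and 3.74e-05, limma). These fits assume that the lone array varies as the controls do, and 1669 and 5749 probe sets pass in them. With all 4 arrays 1 probe set passed.

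**Figure D3:**
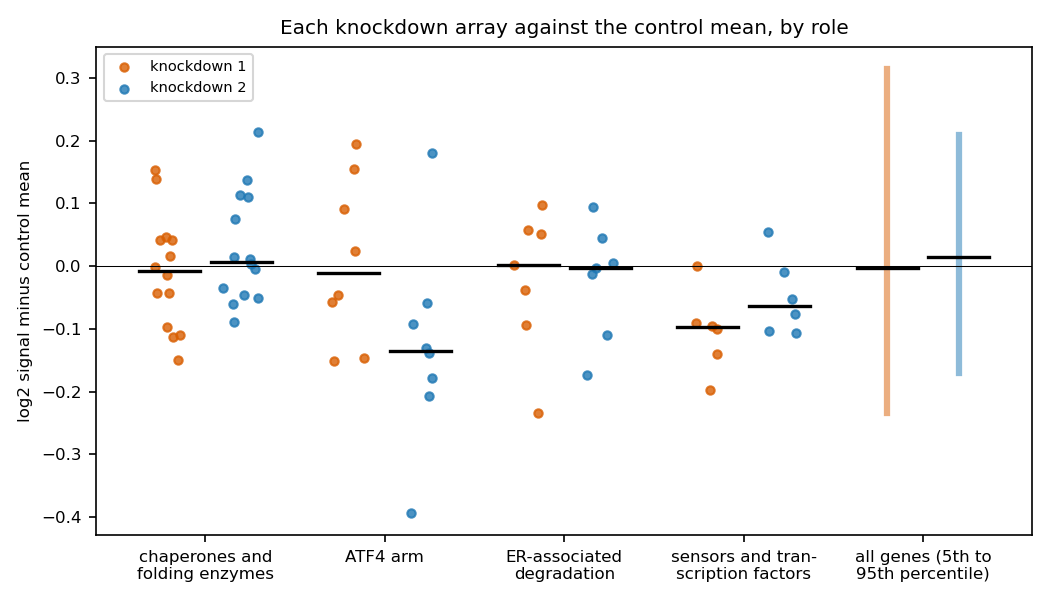
Log2 signal minus the control mean (vertical axis) for each member gene in knockdown 1 (orange) and knockdown 2 (blue), by role, with black lines at the medians; the bars at the right span the 5th to 95th percentile of all 17097 genes, -0.23 to 0.31 in knockdown 1 and -0.17 to 0.21 in knockdown 2. The ATF4 arm has its median near 0 in knockdown 1 (-0.01) and at -0.13 in knockdown 2.

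Promoter sequences of the members are shown because 5 members with a difference below 0 held the same motif. RefSeq windows from 250 bases before to 50 after the start (build GRCm38.p6) were found for 30 of the 35 genes, and those of Atf6, Creb3l1, Derl1, Hyou1 and Manf were not in the table used. The windows were searched on both strands for the ER stress element (CCAAT, 9 bases of any kind, CCACG), the ER stress element II (ATTGG, 1 base of any kind, CCACG), the unfolded protein response element TGACGTGG and the C/EBP-ATF response element TGATGNAA, the form bound by ATF4 with a C/EBP partner. No matches of different motifs overlapped in these windows. The windows of Asns and Trib3 (lower at an unadjusted p), Herpud1 (which holds motifs of both arms) and Hspa5 (level) are printed on the strand of the gene, with matches in capitals.
Asns, chr6:7693160-7693459, minus strand: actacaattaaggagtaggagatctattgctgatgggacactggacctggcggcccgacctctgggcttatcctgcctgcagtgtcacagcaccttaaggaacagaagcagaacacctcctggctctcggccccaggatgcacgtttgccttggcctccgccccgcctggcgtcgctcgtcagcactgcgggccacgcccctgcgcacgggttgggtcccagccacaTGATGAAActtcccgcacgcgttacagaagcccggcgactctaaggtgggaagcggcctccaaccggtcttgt
Trib3, chr2:152344011-152344310, minus strand: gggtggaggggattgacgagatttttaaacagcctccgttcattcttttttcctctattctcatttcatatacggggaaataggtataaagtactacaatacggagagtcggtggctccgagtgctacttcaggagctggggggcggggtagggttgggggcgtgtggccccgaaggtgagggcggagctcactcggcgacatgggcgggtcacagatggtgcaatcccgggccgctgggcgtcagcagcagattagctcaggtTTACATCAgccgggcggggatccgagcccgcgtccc
Herpud1, chr8:94386179-94386478, plus strand: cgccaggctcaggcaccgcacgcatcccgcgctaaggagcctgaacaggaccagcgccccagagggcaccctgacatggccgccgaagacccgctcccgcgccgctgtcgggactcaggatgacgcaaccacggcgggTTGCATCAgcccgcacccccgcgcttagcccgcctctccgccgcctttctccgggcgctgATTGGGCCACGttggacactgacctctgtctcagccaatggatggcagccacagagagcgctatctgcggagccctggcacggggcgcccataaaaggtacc
Hspa5, chr2:34771840-34772139, plus strand: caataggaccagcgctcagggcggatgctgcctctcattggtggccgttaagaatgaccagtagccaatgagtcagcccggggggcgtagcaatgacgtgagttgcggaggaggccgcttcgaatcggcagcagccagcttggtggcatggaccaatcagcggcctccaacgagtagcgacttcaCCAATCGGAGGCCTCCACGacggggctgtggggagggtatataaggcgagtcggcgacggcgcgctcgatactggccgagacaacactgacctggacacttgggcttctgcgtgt

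The C/EBP-ATF element was found in 5 members, Asns, Atf3, Chac1, Herpud1 and Trib3, and in 3.97% of the 32851 promoter windows. All 5 had a difference below 0, from -0.27 to -0.02 with a median of -0.13, which is why the promoters are shown. All but Herpud1 belong to the ATF4 arm. Differences were below 0 for 7 of the 8 genes of that arm, for 22 of the 35 members and for 47.3% of all genes. All 5 were below the control mean in knockdown 2 and 3 in knockdown 1, beside 22 and 20 of the 35 members. In Asns the match TGATGAAA began 23 bases before the start, and in Herpud1, Atf3 and Chac1 it was TTGCATCA on the gene's strand, 112, 110 and 193 bases before the start. In Trib3 the match TTACATCA lay at base 15 after the annotated start. Not every gene of the ATF4 arm held it: Ddit3, Sesn2, Ppp1r15a and Atf4 had no match in their windows. Of these, Ddit3 (-0.0061), Sesn2 (-0.05) and Atf4 (-0.07) had differences below 0 as well, and Ppp1r15a (0.17) above it. Genes of the arm were thus mostly below 0 with or without the motif.

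The ER stress element was found in 9 members, Hspa5, Hsp90b1, Calr, Canx, Pdia6, Creld2, Dnajc3, Derl3 and Syvn1, and in 0.119% of all windows. In Hspa5 the match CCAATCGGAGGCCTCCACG began 65 bases before the start, and Hsp90b1 held 2 matches. Differences of these 9 genes ran from -0.09 to 0.11 with a median of 0.0052, 3 below 0 and 6 above. Element II was found in Herpud1 (-0.13) and Dnajb11 (0.13) and in 0.0365% of windows, and TGACGTGG in 0 members and 0.676% of windows. The genes with the C/EBP-ATF element thus had lower differences than those with the ER stress element, apart from Dnajc3 at -0.09, which lay below Chac1 at -0.08 and Atf3 at -0.02. The contrast was noticed after the values were seen and was not tested.

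Other genes of the ATF4 and amino acid response, listed apart from the members, were lower more often than genes at large. This list too was chosen with earlier results of these data known, so it is no independent check on the members. Its measured genes were bright, with a median signal percentile of 90.5 among all genes. Of 38 listed genes 33 were measured, and 25 had a difference below 0 (75.8%, beside 47.3% of all genes). Translocation and ER export genes had a like share below 0, 24 of 31 (77.4%). Of the 33 ATF4 genes 15 (45.5%) had both knockdown arrays below both controls, beside 17.1% of all genes. Both lay above for 1 (3.03%, beside 21.2%). None passed over all probe sets in limma, and 7 were lower and 0 higher at an unadjusted p of 0.05 (21.2%, beside 2.56% of all genes). The median was -0.06, from -0.10 for knockdown 1 alone and -0.06 for knockdown 2 alone. With 1 knockdown array left in, 20 of 33 lay below both controls with knockdown 2 (31.8% of all genes did) and 23 of 33 with knockdown 1 (39.4% did). With 1 control left out, the number lower at an unadjusted p in limma was 1 without control 1 and 2 without control 2.

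The 2 with the smallest p were Vegfa, the vascular growth factor gene, at 7.88 and 7.88 against 7.60 and 7.55, and Psph, which completes serine synthesis, at 10.00 and 9.93 against 9.79 and 9.80 (unadjusted p = 0.00259 and 0.00532, adjusted p = 0.482 and 0.535, limma). For both genes both knockdown arrays lay below both controls, a pattern that choosing by smallest p favours. The brightest members were closer to the controls: Psat1 of serine synthesis differed by -0.04, the glycyl-tRNA synthetase Gars by -0.04 and the stress protein Nupr1 by -0.12. The other 5 past an unadjusted p of 0.05 were named after their values were seen. They were the factor Atf5 (-0.23), the cysteine-making enzyme Cth (-0.27), the amino acid transporters Slc7a5 (-0.18) and Slc7a1 (-0.13) and the mitochondrial serine hydroxymethyltransferase Shmt2 (-0.23). Slc7a11, the cystine transporter, named in the same way, was at the control level in knockdown 1 (0.02) and lower by 0.64 in knockdown 2, and Gadd45a was higher in knockdown 1 (0.72) and not in knockdown 2 (-0.11).

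**Figure D4:**
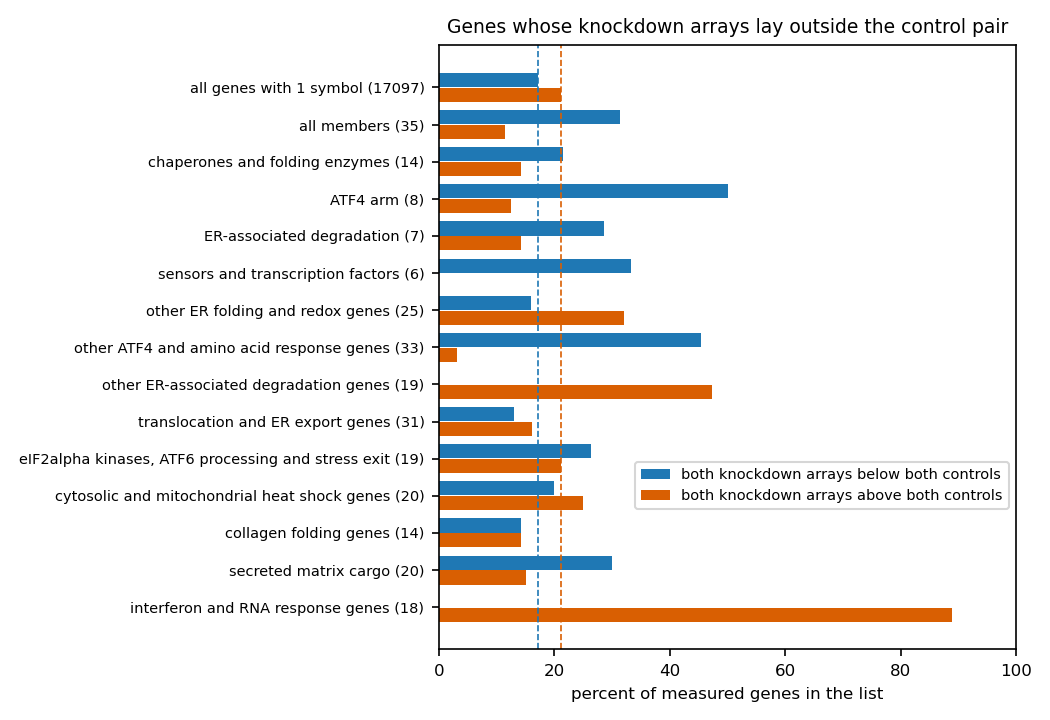
Percent of measured genes (horizontal axis) with both knockdown arrays below (blue) or above (orange) both controls, for all genes, the members, their 4 roles and 9 neighbouring lists, with the number measured in brackets; dashed lines mark the shares of all genes, 17.1% below and 21.2% above. The ATF4 arm (50.0%) and the other ATF4 genes (45.5%) have the longest blue bars, and the interferon and RNA response genes (88.9%) the longest orange bar.

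Degradation and folding genes outside the members had other counts. Of 19 measured genes of ER-associated degradation outside the members, 9 (47.4%, beside 21.2% of all genes) lay above both controls and 0 below, with a median of 0.05. Ngly1, the cytosolic enzyme that strips N-glycans from retrieved proteins, read 7.11 and 7.10 against 7.50 and 7.33, and the lectin gene Erlec1 differed by 0.11, while the brightest, Selenos, Marchf6 and Edem3, differed by -0.07, 0.01 and -0.03. Of 25 other folding and redox genes 8 lay above (32.0%, beside 21.2% of all genes) and 4 below (16.0%, beside 17.1%). The brightest of these, the isomerase P4hb, the peroxiredoxin Prdx4 and the cyclophilin Ppib, differed by 0.04, 0.11 and 0.08, each above both controls, and the translocon co-chaperone Sec63 by -0.16. In neither list did a gene pass over all probe sets. At an unadjusted p of 0.05 in limma 1 degradation gene was higher (5.26%, beside 4.4% of all genes) and 0 were lower. Among the folding genes Prdx4 was higher (4%, beside 4.4% of all genes) and Sec63 lower (4%, beside 2.56%).

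Genes of translocation and ER export lay lower in knockdown 1 than in knockdown 2, with a median of -0.08 there and 0.03 in knockdown 2. Of 31 measured, 4 lay below both controls (12.9%, beside 17.1% of all genes) and 5 above (16.1%, beside 21.2%). The brightest, the KDEL receptor Kdelr2, read 11.14 and 11.16 against 10.95 and 11.18. Spcs1 of the signal peptidase differed by -0.06, Ssr1 of the translocon by -0.08 and the cargo receptor Lman1 by -0.12. The secreted cargo itself, 20 matrix genes, had a median of -0.03, with the proteoglycans Aspn and Lum lower by 0.34 and 0.69 (adjusted p = 0.415 and 0.494, limma), while the bright Sparc, Bgn and Col3a1 differed by -0.04, 0.08 and -0.02. Ibsp, the bone sialoprotein gene, named after its values were seen, read 10.15 and 10.15 against 7.02 and 9.01. Among 14 collagen folding genes 2 lay below both controls (14.3%, beside 17.1% of all genes) and 2 above (14.3%, beside 21.2%). Their median was -0.02 (Serpinh1 0.00275, Crtap 0.14, P4ha2 -0.07, Plod2 -0.11).

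Kinases of eIF2alpha, ATF6 processing and stress exit were level, with a median of 0.0012. Of 19 genes 5 lay below both controls (26.3%, beside 17.1% of all genes) and 4 above (21.1%, beside 21.2%). Tmbim6, Ppp1r15b and Mbtps1 differed by 0.06, -0.03 and -0.02, and the caspase gene Casp12 by 0.31, most of it in knockdown 1 (7.34 beside 6.89 in knockdown 2 and 6.82 and 6.79 in the controls). The heme-regulated kinase gene Eif2ak1 differed by 0.18. Eif2ak2, the kinase PKR that double-stranded RNA activates, named after its values were seen, read 8.40 and 8.46 against 8.53 and 8.38. Cytosolic and mitochondrial heat shock genes, a stress program apart from the ER, had a median of -0.0081. Among them 4 of 20 lay below both controls (20%, beside 17.1% of all genes) and 5 above (25%, beside 21.2%). The bright Hspa8 and Dnaja2 differed by -0.09 and -0.02, Hsph1 by 0.22, and Cryab was low in knockdown 1 (10.04) beside 10.73, 10.73 and 10.81 on the other arrays.

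Genes of the interferon and RNA response, a list chosen with earlier results of these data known, were mostly higher on the knockdown arrays. Of 18 measured all 18 had a difference above 0, and 16 (88.9%) lay above both controls (beside 21.2% of all genes). At an unadjusted p of 0.05 in limma 11 were higher (61.1%, beside 4.4% of all genes), and 0 passed over all probe sets. Their mean signal was 8.57 and 8.58 in the controls, 8.92 in knockdown 1 and 8.70 in knockdown 2. Ifit3, whose product restrains viral RNA, read 10.98 and 11.01 against 11.27 and 11.28, and Ifit1 and Usp18 differed by 0.27 and 0.17, none passing over all probe sets (adjusted p = 0.179, 0.338 and 0.505, limma). The mean of the list was higher in knockdown 1 than in knockdown 2. The median of the ATF4 arm was lower in knockdown 2 (-0.13, beside -0.01), and that of the other 33 ATF4 genes was lower in knockdown 1 (-0.10, beside -0.06). Its part, and that of the osteoblast markers, in the values of both ATF4 lists was not tested.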

How the data were processed

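RNA of 4 ATDC5 samples was profiled on Affymetrix mouse 3' arrays, 2 control and 2 knockdown. The values are log2 signals per probe set that the authors normalized with RMA, per the submitters' processing notes (its software is not given in the sources used here). Base 2 was read from the range, 2.17 to 12.72. RMA compresses differences of dim probe sets and removes differences in total RNA. Precision is limited by having 4 arrays.

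Of 45141 probe sets, 104 array controls were left out. Symbols came from the platform annotation, which can be old: 28898 probe sets had 1 symbol, 551 several and 15588 none. The 45037 probe sets were fitted together by limma 3.58.1 under R 4.3.3 (lmFit, then moderated by eBayes along a mean-variance trend, 2 residual and 5.32 prior degrees of freedom), two-sided, with Benjamini-Hochberg adjustment over all of them; the step was tested on simulated data. Symbols of the neighbouring lists were brought up to date through RefSeq synonyms of GRCm38.p6 for 9 of the 267 list symbols. List genes without a probe set of that 1 symbol were not analysed here.

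The members and lists were chosen with earlier results of these data known. Named were Chadl, all members, and of each neighbouring list its 3 brightest genes and its 2 of smallest p, others where the text says so. Alternatives were quantile normalization, median centring, leaving out probe sets below the 40th percentile, the mean of a gene's probe sets, 1 probe set per gene, eBayes without trend or robust, the replicate block, an adjusted p of 0.1, and leaving out each array.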

Additional observations from a re-analysis of the deposited data

How the results depend on the processing

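No member passed over all probe sets under any alternative that kept all 4 arrays, including an adjusted p of 0.1, and with 1 array left out the number ran from 0 (either control) to 7 (without knockdown 2), with 5 without knockdown 1. Members lower at an unadjusted p in limma numbered 2, 1 without the trend, 1 with the replicate block, and 0 to 9 with 1 array left out; members higher numbered 0, 2 with the mean of probe sets, 1 without the trend, and 0 to 4 with 1 array left out. The replicate numbers do not pair the samples as far as the data show (correlation of the control and knockdown gaps over probe sets 0.01), and the replicate block changed no other call. Members below both controls numbered 11, and 13 to 19 with 1 array left out; members above numbered 4, and 5 to 12. Leaving out an array raises these shares for all genes too, from 17.1% to between 29.0% and 39.4% below and from 21.2% to between 33.3% and 41.7% above. The other ATF4 genes, with alternatives chosen after seeing the data, lay below both controls in 14 to 15 of 33 under both scalings and in 17 to 23 with 1 array left out, and those lower at an unadjusted p numbered 1 (without control 1) to 17 (without knockdown 2). Of all genes 0.801% and 0.766% were lower at an unadjusted p without control 1 and 2, and 6.14% and 11.5% without knockdown 1 and 2.

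The median of all members moved with most choices by at least the spread between replicate arrays, and those of the 4 roles with fewer. Settings not named here left a median within that spread. That of all members was -0.036 with quantile normalization, -0.020 with median centring, -0.028 with the mean of probe sets and -0.038 to 0.00036 with 1 array left out. That of the chaperones was 0.017 with quantile normalization, -0.012 with the mean of probe sets and -0.0075 to 0.0091 with 1 array left out. That of the ATF4 arm stayed below 0, at -0.13 to -0.011 with 1 array left out. That of ER-associated degradation was 0.0071 with median centring, -0.035 with the mean of probe sets and -0.0034 to 0.024 with 1 array left out. That of the sensors was -0.021 with the mean of probe sets and -0.098 to -0.064 with 1 array left out. The cause of these moves was not tested.

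Of 420 values of single members under 12 settings, 379 kept their sign and stayed short of the threshold, 30 reversed and 12 newly passed, 1 of them (Ddit3 without knockdown 2) also reversed. The mean of probe sets reversed Hspa5 (-0.016), Sel1l (-0.0047), Syvn1 (-0.035), Derl1 (-0.038), Eif2ak3 (0.010) and Creb3l2 (0.043), and quantile normalization reversed Hsp90b1 (0.012) and Canx (0.0045). With 1 array left out 17 members reversed. Their ranges were -0.0016 to 0.012 for Hspa5, -0.051 to 0.042 for Hsp90b1, -0.043 to 0.21 for Pdia3, -0.15 to 0.015 for Pdia4, -0.0044 to 0.046 for Calr, -0.045 to 0.017 for Canx, -0.013 to 0.11 for Creld2, -0.11 to 0.0030 for Manf, -0.21 to 0.20 for Ddit3, -0.14 to 0.091 for Atf3, -0.18 to 0.024 for Chac1, -0.012 to 0.051 for Derl1, -0.038 to 0.045 for Derl2, -0.0034 to 0.058 for Derl3, -0.17 to 0.00036 for Atf6, -0.10 to 0.00088 for Xbp1 and -0.10 to 0.054 for Eif2ak3. With 2 arrays per group, differences of this size are at the limit of what the arrays can show.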
